A study of Homo sapiens with 8 samples.

Results

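Of 223459 genomic loci captured with at least 1 of 3 RNA oligos, 10429 (4.67%) carried a region captured with MEG3 TFR1 and a region captured with GATA6-AS TFR1 that shared DNA, and no region captured with MEG3 TFR2. They were found by joining the deposited captured lists of all 3 oligos, merging every pair of regions that overlapped by at least 1 bp, and keeping the loci with this combination of oligos. The loci were thus chosen by the presence of a region in 2 lists and its absence from the third list. Every captured region had a positive log2 ratio of oligo over no oligo, with a least value of 0.29 in each list. The list names also carry a p label, so a cut-off beyond the sign may have been used, and it is not described in the sources used here. Because the log2 ratios went with entry into the lists, they are given below as a description of the loci. Of the MEG3 TFR1 regions 12% (10777) lay in shared loci, and of the GATA6-AS TFR1 regions 10.2% (10716).

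All 8 libraries were made from genomic DNA of the human embryonic stem cell line H1, freed of RNA. They fell into 4 groups of 2 libraries from independent experiments: DNA captured with GATA6-AS TFR1, with MEG3 TFR1, with MEG3 TFR2, or with no oligo. In the oligo groups 20 pmol of biotinylated RNA was mixed with 6 to 7 µg of DNA sheared to 200 to 300 bp and held at 37 °C for 1 h, with 5 mM MgCl2 and 50 mM KCl in the buffer; the control was treated alike with the RNA left out. DNA held by RNA on streptavidin beads was released with RNases and sequenced. All 3 oligos were set against the same no-oligo libraries, so the lists share their controls and the number of shared loci is given as the count that the rule fixes. No RNA level was measured, so a gene is named here only for where captured DNA lay. The lists gave 1 value per region and none per library. The spread between libraries, the read depth and the error of each ratio are therefore unknown.

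An RNA-DNA triplex forms when a single RNA strand lies in the major groove of a DNA duplex and bonds to its purine-rich strand, so runs of purines on one DNA strand, with pyrimidines on the other, are the classic triplex targets. MEG3 is a maternally expressed long noncoding RNA of the imprinted DLK1-DIO3 domain that has been linked to Polycomb-mediated repression and to genes of the TGF-beta pathway. GATA6-AS is transcribed from the strand opposite to GATA6, a gene for a transcription factor of endoderm and heart, and has been studied in endothelial cells. TFR is read here as triplex-forming region.

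Because purine runs are what such an RNA is known to bind, promoter sequences at shared loci were read first. The windows ran from 250 bp before to 50 bp after an annotated gene start and came from RefSeq on GRCh38.p14. A fixed order, the genes with the highest ratios at their starts and then the gene lists described further on, gave 8 promoters that lay with at least 150 bp inside the locus named for the gene. Of these, 5 held an unbroken run of at least 15 purines or pyrimidines. Those 5 and 1 of the others are shown 5′ to 3′ on the strand of the gene, with the longest run of purines or of pyrimidines in capitals. A run of pyrimidines is a run of purines on the opposite strand. P3H3 encodes a collagen prolyl hydroxylase (chr12:6828157-6828456, plus strand), and NBEA encodes neurobeachin, a protein of membrane trafficking in neurons (chr13:34942020-34942319, plus strand). SIX4 is a homeobox transcription factor (chr14:60724302-60724601, minus strand), and PAX7 is a paired-box factor of muscle stem cells and neural crest (chr1:18630596-18630895, plus strand). GRIA1 encodes an AMPA-type glutamate receptor subunit (chr5:153490420-153490719, plus strand), and FOXB2, a forkhead gene (chr9:77019405-77019704, plus strand), is shown as a promoter without a run of 15.
P3H3: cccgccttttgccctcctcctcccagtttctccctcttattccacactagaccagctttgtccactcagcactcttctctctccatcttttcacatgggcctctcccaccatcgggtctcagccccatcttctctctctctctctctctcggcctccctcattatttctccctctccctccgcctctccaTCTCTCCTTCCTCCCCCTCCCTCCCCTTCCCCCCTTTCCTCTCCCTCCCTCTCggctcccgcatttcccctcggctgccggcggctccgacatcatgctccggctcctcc
NBEA: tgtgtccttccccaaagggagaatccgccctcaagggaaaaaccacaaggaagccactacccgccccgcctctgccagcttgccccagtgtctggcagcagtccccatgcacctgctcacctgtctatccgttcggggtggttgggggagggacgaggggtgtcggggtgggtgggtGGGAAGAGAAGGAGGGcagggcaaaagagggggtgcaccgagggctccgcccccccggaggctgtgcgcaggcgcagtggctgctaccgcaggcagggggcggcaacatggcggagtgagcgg
SIX4: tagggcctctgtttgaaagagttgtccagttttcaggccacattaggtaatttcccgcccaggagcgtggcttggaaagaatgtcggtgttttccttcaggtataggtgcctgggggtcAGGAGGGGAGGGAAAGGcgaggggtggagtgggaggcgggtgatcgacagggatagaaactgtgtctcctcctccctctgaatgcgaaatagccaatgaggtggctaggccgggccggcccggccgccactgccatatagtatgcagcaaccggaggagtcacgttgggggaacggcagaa
PAX7: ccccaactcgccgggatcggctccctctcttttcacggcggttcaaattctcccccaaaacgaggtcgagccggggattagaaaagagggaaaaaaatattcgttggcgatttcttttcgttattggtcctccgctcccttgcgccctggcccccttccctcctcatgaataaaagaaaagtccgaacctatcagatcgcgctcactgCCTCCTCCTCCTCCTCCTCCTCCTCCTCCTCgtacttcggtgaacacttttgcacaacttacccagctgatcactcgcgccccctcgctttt
GRIA1: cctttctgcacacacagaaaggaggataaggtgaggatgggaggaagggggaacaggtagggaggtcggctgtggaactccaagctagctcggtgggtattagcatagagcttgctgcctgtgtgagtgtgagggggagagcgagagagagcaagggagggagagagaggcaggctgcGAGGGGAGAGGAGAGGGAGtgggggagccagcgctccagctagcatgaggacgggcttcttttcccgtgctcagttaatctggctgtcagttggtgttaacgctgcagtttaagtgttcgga
FOXB2: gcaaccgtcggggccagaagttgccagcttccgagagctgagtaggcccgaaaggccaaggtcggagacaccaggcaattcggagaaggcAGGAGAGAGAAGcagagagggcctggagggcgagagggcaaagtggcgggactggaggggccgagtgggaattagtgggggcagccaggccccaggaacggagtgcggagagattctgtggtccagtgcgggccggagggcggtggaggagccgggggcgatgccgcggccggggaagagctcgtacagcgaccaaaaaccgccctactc

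The P3H3 run was 53 bases long and lay wholly inside the MEG3 TFR1 region and the GATA6-AS TFR1 region of its locus. The same held for the purine runs of SIX4 (17 bases) and GRIA1 (19 bases). In PAX7 the run was 31 bases of a repeated CCT unit and all of it lay in the GATA6-AS TFR1 region, with 0 of its bases in the MEG3 TFR1 region. In NBEA 4 of the 16 bases lay in the GATA6-AS TFR1 region and 0 in the MEG3 TFR1 region. The FOXB2 run of 12 bases lay in the MEG3 TFR1 region, and 6 of its bases also in the GATA6-AS TFR1 region. In the promoters that are not shown, of TBX1 (longest run 14 bases) and NPPA (12 bases), the run lay in the MEG3 TFR1 region and outside the GATA6-AS TFR1 region. The longest run thus did not always lie in the listed regions of both oligos: 3 of the 8 runs lay wholly in a region of both oligos. The runs of FOXB2, TBX1 and NPPA were shorter than 15 bases, and other runs in the same windows were not placed. Captured fragments may extend past the border of a listed region. Whether an oligo captured a run that lay outside its listed region was therefore not tested.

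Over all 34789 promoter windows of the table, 809 (2.33%) overlapped a shared locus. Of those 809, 289 (35.7%) held a run of at least 15 purines or pyrimidines, beside 19.9% of all windows. The 95% Wilson interval of the first share was 32.5% to 39.1% (these intervals cover counting error only, and windows of neighbouring starts of 1 gene overlap). Windows at loci of MEG3 TFR1 alone held such a run in 34.6% (31.9% to 37.4%), so their interval overlapped that of the shared loci. Windows at loci of GATA6-AS TFR1 alone held one in 24.0% (22.5% to 25.4%), an interval below and apart from that of the shared loci. The share was 36.1% at loci of MEG3 TFR1 with MEG3 TFR2, 35.3% at loci of all 3 oligos and 28.1% at loci of MEG3 TFR2 with GATA6-AS TFR1. Windows with no captured locus stood at 18.0%. A run of at least 20 bases was found in 12.9% of the windows at shared loci and in 6.04% of all windows. Any overlap counted, a window could count under more than 1 combination, and coverage differed. The locus covered the whole window in 42.0% of windows at shared loci, 16.5% at MEG3 TFR1 alone and 21.1% at GATA6-AS TFR1 alone.

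**Figure D1:**
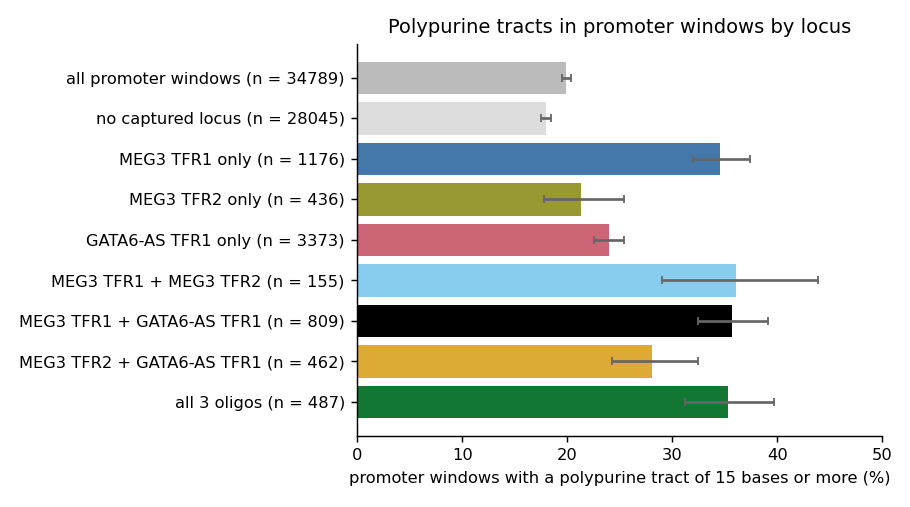
Share of 300 bp promoter windows (percent) that hold a run of at least 15 purines or pyrimidines, by the combination of oligos whose captured locus overlaps the window; n is the number of windows and lines are 95% Wilson intervals for counting error. The shared loci of MEG3 TFR1 and GATA6-AS TFR1 (black, 35.7%) stand with those of MEG3 TFR1 only (34.6%) and above those of GATA6-AS TFR1 only (24.0%).

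Base composition differed between these windows. Median GC was 62.3% at shared loci, 57.3% at MEG3 TFR1 loci, 63.7% at GATA6-AS TFR1 loci and 58.7% over all windows. Within bands of GC the share with a run of at least 15 was 40.0% at shared loci against 19.5% of all windows below 50% GC (35 windows at shared loci). It was 39.4% against 22.8% from 50% to 60% GC, 32.7% against 20.2% from 60% to 70%, and 38.7% against 17.1% from 70% up (75 windows at shared loci). Runs were thus more frequent at shared loci than over all windows in all 4 bands. At loci of MEG3 TFR1 alone the shares were 40.2%, 35.3%, 31.8% and 25.8% from the lowest band to the highest (62 windows in the highest). At loci of GATA6-AS TFR1 alone they were 36.9%, 26.6%, 23% and 19.4%. The excess over all windows was therefore not particular to the shared loci. In 469 windows that a shared locus covered only in part, bases of such runs made up 4.02% of the covered bases and 2.68% of the others. The corresponding values were 3.76% and 1.91% for MEG3 TFR1 alone (982 windows), and 2.09% and 1.62% for GATA6-AS TFR1 alone (2661 windows). On the strand of the gene, 211 of the runs at shared loci were purine and 212 pyrimidine, so neither strand carried more of them.

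Short repeats were searched on both strands, and they may overlap each other and the runs above. GGGAGGGA was in 17.2% of the windows at shared loci, 8.02% of all windows, 13.4% at MEG3 TFR1 loci and 10.2% at GATA6-AS TFR1 loci. GGAGGAGG was in 18.7%, beside 11.0% of all windows and 15.8% and 15.4% at the loci of each oligo alone. GAGAGAGA divided the oligos: it was in 9.01% of the windows at MEG3 TFR1 loci, 2.82% at GATA6-AS TFR1 loci, 6.18% at shared loci and 3.41% of all windows. Neither GAAGAAGA (2.10% at shared loci, Wilson interval 1.32% to 3.34%, and 1.85% of all windows) nor TGTGTGTG (4.70%, interval 3.44% to 6.38%, and 3.22%) stood as far from the whole table, although the interval of TGTGTGTG also lay above the share of all windows. GGAGGAGG and GGGAGGGA were thus the most frequent of the 5 repeats at shared loci, as they were over all windows. They were also in 22.6% and 21.8% of the windows at loci of all 3 oligos, and in 22.3% and 17.1% of those at loci of MEG3 TFR2 with GATA6-AS TFR1. These matches describe letters in 300 bp windows and are not binding sites.

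The shared loci had a median width of 700 bp (quartiles 550 to 950 bp, range 150 to 4000 bp) and covered 8.05 Mb, of which 3.02 Mb lay in regions of both oligos. Most were simple pairs: 9848 (94.4%) held 1 region of each oligo. The regions of both oligos shared a median of 250 bp, or 77.8% of the shorter region, and in 3732 loci (35.8%) one region lay wholly inside the other. Merging makes a locus wider than its regions, so locus widths are not compared with those of single-oligo loci. Region ends lay on a grid of 50 bp, so the least overlap was 50 bp. The 844 pairs that shared just 50 bp had median log2 ratios of 1.51 for MEG3 TFR1 and 1.43 for GATA6-AS TFR1. Just outside the rule, 804 pairs touched without overlap, with medians of 1.52 and 1.41. Ratios on either side of that border were thus alike.

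The median log2 ratio at shared loci was 1.41 for MEG3 TFR1 (quartiles 1.15 to 1.76, range 0.42 to 4.91) and 1.31 for GATA6-AS TFR1 (1.08 to 1.60, range 0.41 to 3.79), taking the highest region of each oligo in a locus. MEG3 TFR1 had the higher ratio at 6463 loci (62.0%). The median difference, MEG3 TFR1 minus GATA6-AS TFR1, was 0.11 on the log2 scale, with quartiles of -0.14 and 0.37; the whole lists differed in the same direction, with medians of 1.41 and 1.34. Region by region, GATA6-AS TFR1 reached 4-fold or more in 7.33% of its regions at shared loci and in 11.2% of its regions at loci it held alone. For MEG3 TFR1 these shares were 13.8% and 14.6%. In neither list was the 4-fold share higher at shared loci than at loci of the oligo alone. Single regions were also wider at shared loci. Their median width was 500 bp against 350 bp for GATA6-AS TFR1, and 400 bp against 350 bp for MEG3 TFR1. A wider region overlaps another list more easily, so these shares describe the lists and do not measure an effect of a second oligo. Both oligos reached 4-fold at 419 loci (4.02%) and 8-fold at 11.

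**Figure D2:**
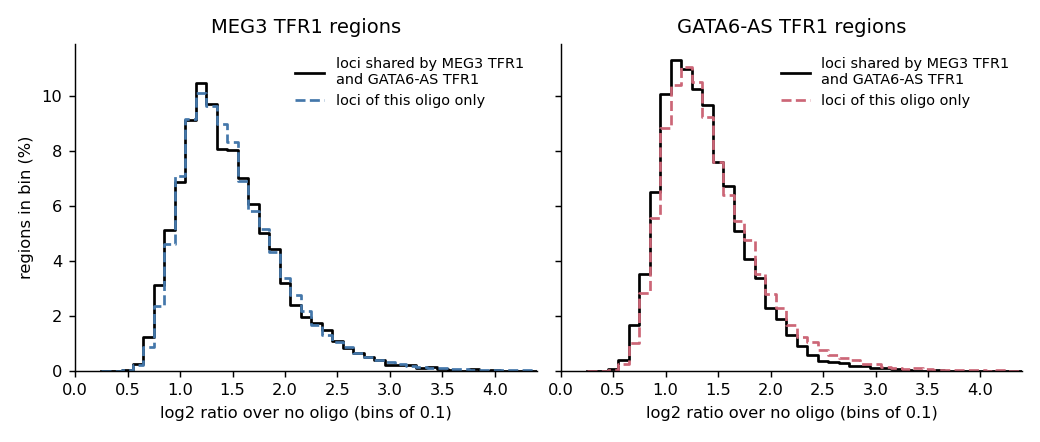
Distribution of the log2 ratio over no oligo (horizontal axis, bins of 0.1) as percent of regions per bin, for MEG3 TFR1 regions (left) and GATA6-AS TFR1 regions (right), at shared loci (solid) and at loci of that oligo only (dashed), with the few higher values beyond the axis not drawn. The curves nearly coincide for MEG3 TFR1, and for GATA6-AS TFR1 fewer shared regions lie above a log2 ratio of 2 (7.33% against 11.2%).

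The highest shared locus by the lower of its 2 ratios lay inside CPAMD8, a gene of the alpha-2-macroglobulin and complement family (chr19:16985601-16985950, hg38). It was 21.8-fold over no oligo with MEG3 TFR1 and 13.8-fold with GATA6-AS TFR1. A locus inside NFIC, which encodes a transcription factor of the nuclear factor I family (chr19:3387451-3387950), stood next at 20.1-fold and 13.2-fold. A locus between genes on chromosome 1 (chr1:5603801-5604700) had 10.2-fold and 11.7-fold, and one inside the long noncoding RNA gene LINC01618 (chr4:52811751-52812150) 9.93-fold and 9.80-fold. Between these came the locus at the start of WSB2, described next. These 5 loci were 350 to 900 bp wide.

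Among protein-coding genes with a listed start, 1099 of 15812 (6.95%) had a shared locus within 1 kb of a start. The 12 with the highest lower ratio were named, and they lay at 10 loci. WSB2, which encodes a substrate-recognition protein of ubiquitin ligases, led with 12.5-fold for MEG3 TFR1 and 10.1-fold for GATA6-AS TFR1 (chr12:118061401-118061800). GDAP1L1, a paralogue of the Charcot-Marie-Tooth neuropathy gene GDAP1, followed with 14.4-fold and 8.54-fold (chr20:44247051-44247400). The locus at SLC4A2, an anion exchanger, and LOC128092247 had 7.77-fold and 7.74-fold (chr7:151062651-151063050), nearly the same for both oligos. NCDN, which encodes the neuronal protein neurochondrin, and its neighbour KIAA0319L shared a locus with 8.71-fold and 7.69-fold (chr1:35558351-35558650).

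At CD200, which encodes a cell-surface glycoprotein that restrains myeloid cells, the ratios were 10.2-fold for MEG3 TFR1 and 6.92-fold for GATA6-AS TFR1. TASOR, a subunit of the HUSH silencing complex, had 7.5-fold and 6.78-fold. P3H3, whose promoter is printed above, had 7.00-fold and 6.46-fold over a locus of only 250 bp. NBEA had 6.19-fold and 6.91-fold, RGL2, an activator of Ral GTPases, 6.14-fold and 7.35-fold, and REM2, a GTPase that acts on calcium channels, 6.90-fold and 6.10-fold. NBEA and RGL2 were thus the loci of this set at which GATA6-AS TFR1 had the higher ratio. A MEG3 TFR2 region lay within 1 kb, without overlap, of 4 of the 10 loci.

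**Figure D3:**
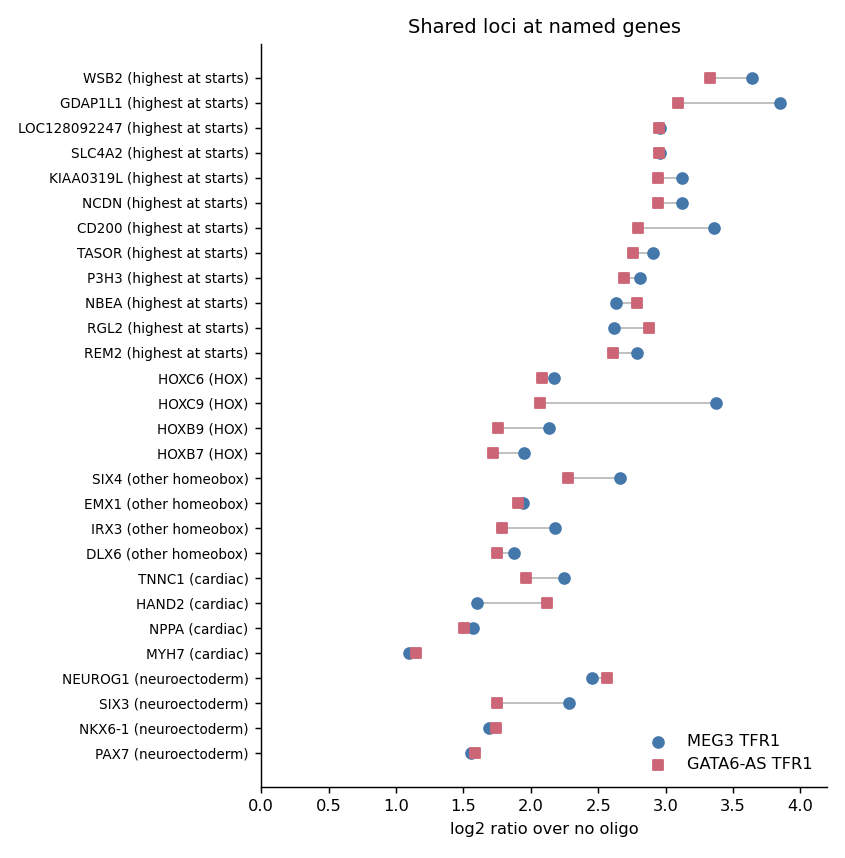
Log2 ratio over no oligo (horizontal axis) of the shared locus named for each gene, with circles for MEG3 TFR1 and squares for GATA6-AS TFR1; each point is 1 deposited value with no error. Genes are the 12 with the highest lower ratio at a start, then up to 4 from each of the HOX, other homeobox, cardiac and neuroectoderm lists; WSB2 has 3.64 and 3.33 and MYH7 1.09 and 1.15. LOC128092247 and SLC4A2 stand for 1 locus, as do KIAA0319L and NCDN.

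Shared loci lay close to genes. The midpoint of 1312 (12.6%, Wilson interval 12% to 13.2%) fell at a gene edge, meaning 1 kb or less from the first or last base of a protein-coding gene, which can be its start or its far end, against 7.25% of all captured loci. The share was 4.44% for loci of MEG3 TFR1 alone, 10.6% for GATA6-AS TFR1 alone (10.4% to 10.9%), 10.2% for loci of MEG3 TFR2 with GATA6-AS TFR1, and 12% for loci of all 3 oligos. A further 5557 shared loci (53.3%) had the midpoint in the body of a protein-coding gene, 892 (8.55%) in a gene of another kind, mostly long noncoding RNA genes, and 2668 (25.6%) between genes. The gene edge share exceeded that of MEG3 TFR1 alone on 22 of 22 autosomes. It exceeded that of GATA6-AS TFR1 alone on 15 of 22, and that of the loci of all 3 oligos on 13 of 22. Shared loci thus lay at gene edges far more often than other MEG3 TFR1 loci and only somewhat more often than other GATA6-AS TFR1 loci. With chromosome 19 left out, a choice made after its share was seen, the gene edge share of the shared loci was 11.8%.

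Distances to gene starts gave a like picture. Starts were listed for all chromosomes with shared loci except chromosome 8, which leaves 10089 shared loci. Only 15812 of the 19974 protein-coding genes had a listed start, so distances near the other genes are too long. The locus at the edge of IRX3, for example, lay 582470 bp from the nearest listed start, and that at SOX14 234440 bp. The midpoints of the 10089 shared loci lay a median of 23252 bp from the nearest listed start of a protein-coding gene, against 46327 bp for MEG3 TFR1 alone and 29177 bp for GATA6-AS TFR1 alone. Loci of all 3 oligos lay closer, at 19831 bp, and loci of MEG3 TFR2 with GATA6-AS TFR1 at 24361 bp. Within 1 kb of a start lay 879 (8.71%, Wilson interval 8.18% to 9.28%), beside 2.76% (2.63% to 2.89%) and 7.31% (7.12% to 7.5%) for the single oligos and 4.62% of all loci. The loci near a start were found on both sides of it. Of 1277 with the midpoint within 2 kb of a start, 232 lay within 500 bp upstream, 256 within 500 bp inside, 306 further upstream and 483 further inside the gene.

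**Figure D4:**
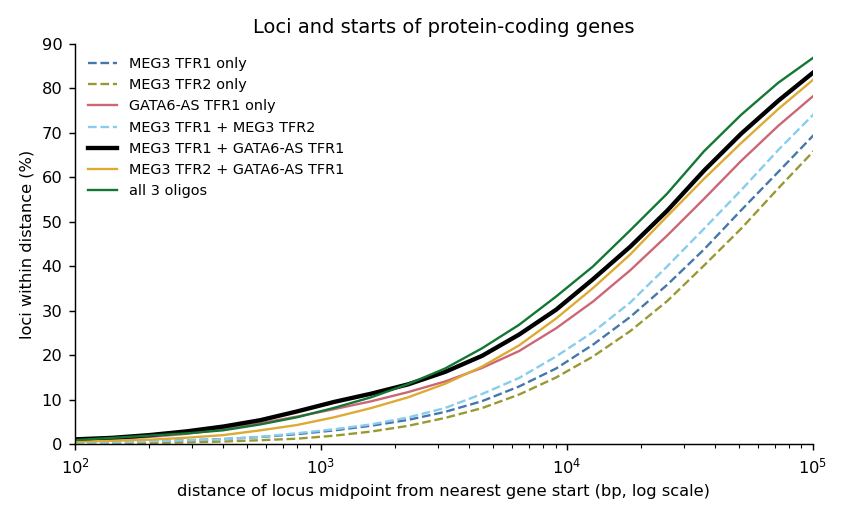
Cumulative share of loci (percent) whose midpoint lies within a given distance (bp, log scale) of the nearest listed start of a protein-coding gene, by combination of oligos. The shared loci (thick black) reach 8.71% at 1000 bp, above MEG3 TFR1 only (2.76%) and GATA6-AS TFR1 only (7.31%).

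Shared loci were unevenly spread over chromosomes. Their share of all captured loci ran from 2.13% on chromosome 18 and 2.19% on chromosome 13 to 6.65% on chromosome 17 and 8.45% on chromosome 19, with a median of 4.36% over the autosomes. Chromosome 19 alone held 1089, and there they made up 21.0% of the loci with a MEG3 TFR1 region. The nearest other shared locus was a median of 19.2 kb away, and 3621 (34.7%) had one within 10 kb.

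**Figure D5:**
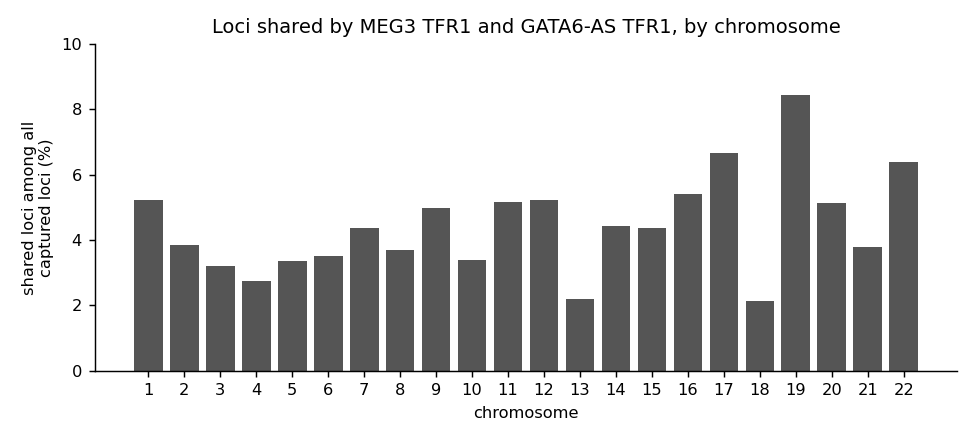
Shared loci as percent of all captured loci on each autosome (bars from 0). Chromosome 19 is highest at 8.45% and chromosome 18 lowest at 2.13%.

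The rule kept MEG3 TFR2 regions out of the locus itself and not out of its neighbourhood. The nearest MEG3 TFR2 captured region was a median of 3550 bp away, closer than for loci of MEG3 TFR1 alone (7650 bp) or GATA6-AS TFR1 alone (5950 bp). It lay within 1 kb of 2059 shared loci (19.7%) and within 10 kb of 8119 (77.9%), and it touched 76 without overlap. Those 76, just inside the rule, had median log2 ratios of 1.48 for MEG3 TFR1 and 1.36 for GATA6-AS TFR1. In the MEG3 TFR2 control list, where signal was higher without the oligo, 30 shared loci (0.288%) overlapped a region, beside 93 loci (0.143%) of MEG3 TFR1 alone and 70 (0.093%) of GATA6-AS TFR1 alone. Most shared loci were thus absent from both MEG3 TFR2 lists, which does not show that MEG3 TFR2 captured nothing there.

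At the edges of protein-coding genes, counted by overlap with any base within 1 kb of a gene end, 1832 of 19974 genes (9.17%) had a shared locus. The 19974 include 848 genes on chromosome X, which held 0 shared loci, so the share over the autosomes is somewhat higher. Of the 1832 genes 723 (39.5%) also had a MEG3 TFR2 region elsewhere at their edges, while 23.6% of all protein-coding genes had a MEG3 TFR2 region at an edge. The 1690 shared loci concerned had median log2 ratios of 1.42 and 1.33, close to the medians over all shared loci. In all, 17 gene lists of development, signalling, chromatin, heart, vessel, nerve, matrix and ribosome were then read, and 86 of their 555 genes (15.5%) had a shared locus. The lists were chosen with earlier results known, so their counts stand as descriptions beside the 9.17% of all genes.

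HOX genes, the clustered homeobox genes that set position along the body axis, had the highest share: 14 of 39 (35.9%). HOXC held 7 of its 9 genes, HOXB 5 of 10, HOXA 2 of 11 and HOXD 0 of 9. The genes stand so close that some loci counted for more than 1 of them, and 22 distinct loci lay behind the count. At HOXC9 the locus (chr12:54001551-54002350) had log2 ratios of 3.37 for MEG3 TFR1 and 2.07 for GATA6-AS TFR1. HOXC6 had 2.17 and 2.08, HOXB9 2.13 and 1.76, and the locus between HOXB7 and HOXB8 1.95 and 1.72. The other HOX genes with a shared locus were HOXA7, HOXA9, HOXB4, HOXB5, HOXC8, HOXC10, HOXC11, HOXC12 and HOXC13. Over the 14 genes the ratio ran from 0.69 to 3.37 with MEG3 TFR1 and from 0.82 to 2.08 with GATA6-AS TFR1. GATA6-AS TFR1 regions of any kind lay at 36 of the 39 HOX genes and MEG3 TFR1 regions at 29, against 47.1% and 29.3% of all protein-coding genes. MEG3 TFR2 regions lay at 22 of the 39, against 23.6% of all. The HOX count fell to 7 genes when loci with a MEG3 TFR2 region within 1 kb were left out, and to 2 with 10 kb. It fell to 7 when the lists were held to log2 ratios of at least 1.5. Over all protein-coding genes the count fell from 1832 to 1461, 369 and 529 under the same settings, in that order.

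Other homeobox genes, which pattern brain, face and sense organs, had shared loci at 11 of 45 (24.4%). MEG3 TFR1 regions of any kind lay at 26 of the 45 and GATA6-AS TFR1 regions at 36, against 29.3% and 47.1% of all protein-coding genes. SIX4 led with 2.66 for MEG3 TFR1 and 2.27 for GATA6-AS TFR1, and its locus held the purine run printed above. IRX3, a patterning factor of neural tube and heart, had 2.18 and 1.78, EMX1, a factor of the forebrain cortex, 1.94 and 1.90, and DLX6, a factor of jaw and forebrain, 1.88 and 1.75. The others were NKX2-1, NKX6-1, DLX2, DLX3, SIX3, SIX5 and IRX6. This count moved little with the MEG3 TFR2 rule at 1 kb (10 genes) and fell to 4 at 10 kb. Over all protein-coding genes 1461 and 369 of 1832 remained.

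Neuroectoderm genes had shared loci at 7 of 25 (28.0%), of which SIX3 and NKX6-1 also stand in the homeobox list. NEUROG1, a proneural transcription factor, had log2 ratios of 2.45 for MEG3 TFR1 and 2.57 for GATA6-AS TFR1 in a locus of 300 bp (chr5:135534751-135535050). SIX3, a factor of eye and forebrain, had 2.28 and 1.75, and NKX6-1 1.69 and 1.74. PAX7, with its run of CCT units, had 1.55 and 1.59. NES, NEUROD1 and OLIG2 completed the set. MEG3 TFR1 regions of any kind lay at the edges of 14 of the 25 genes and GATA6-AS TFR1 regions at 20, against 29.3% and 47.1% of all protein-coding genes. MEG3 TFR2 regions lay at the edges of 2 of the 25 genes, against 23.6% of all.

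Heart genes had shared loci at 6 of 25 (24.0%). MEG3 TFR1 regions of any kind lay at 12 of the 25 and GATA6-AS TFR1 regions at 18, against 29.3% and 47.1% of all protein-coding genes. TNNC1, the calcium-binding troponin of slow and cardiac muscle, had 2.25 for MEG3 TFR1 and 1.96 for GATA6-AS TFR1. HAND2, a transcription factor of the developing right ventricle, was among the loci with the higher GATA6-AS TFR1 ratio, 1.60 against 2.12, and its regions shared only 50 bp. NPPA, which encodes atrial natriuretic peptide, had 1.57 and 1.5, and the myosin gene MYH7 1.09 and 1.15. MYL3 and TNNT2 were the others. The heart list fell to 0 genes when MEG3 TFR2 was kept out for 10 kb around the locus. The TGF-beta and BMP, pluripotency, endoderm and mesoderm, Polycomb and imprinted lists fell to 0 as well. Over all protein-coding genes 369 of 1832 remained. Of endothelial genes 6 of 33 (18.2%) had a shared locus: DLL4, a Notch ligand of sprouting vessels (2.13 and 1.43), ENG, a TGF-beta co-receptor (1.27 and 1.93), the lymphatic receptor FLT4 (1.43 and 1.07), the tight-junction gene CLDN5 (1.01 and 1.12), NOS3 and ESAM. MEG3 TFR1 regions of any kind lay at 13 of the 33 and GATA6-AS TFR1 regions at 17. The endothelial count fell to 3 when 0.5 or more of the shorter region had to be shared. Over all protein-coding genes that setting left 1496 of 1832.

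Genes of the TGF-beta and BMP pathway were near the background, 4 of 46 (8.70%). THBS1, which encodes an activator of latent TGF-beta, had 2.27 for MEG3 TFR1 and 1.52 for GATA6-AS TFR1. The others were the matrix protein gene LTBP2 (1.33 and 1.47), the SMAD corepressor gene SKIL (1.20 and 1.77) and the endothelial receptor gene ACVRL1 (0.90 and 1.09). WNT ligands and receptors had 4 of 29 (13.8%), led by WNT1, a midbrain signal, with 3.33 and 1.66; WNT9A, WNT8B and WNT6 were the others. SOX and T-box genes had 6 of 34 (17.6%). SOX14, a factor of interneurons, had 2.84 and 2.61, and TBX1, a factor of the pharyngeal arches, 1.28 and 1.29. The forkhead genes had 4 of 41 (9.76%): FOXP4, FOXP1, FOXB2 and FOXA3.

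Several other lists had counts near the background. Polycomb genes had 2 of 30 (6.67%), and 5 of 30 when regions within 200 bp were merged. MTF2, a Polycomb-like partner of the repressive complex PRC2, had 2.43 for MEG3 TFR1 and 2.44 for GATA6-AS TFR1, and CBX8, a reader subunit of PRC1, 2.68 and 2.17. Pluripotency genes had 3 of 25 (12%): MYC (1.68 and 1.65), LIN28A (1.55 and 1.36) and PRDM14 (1.61 and 1.26). Endoderm and mesoderm genes had 2 of 25 (8.0%), PDGFRA and FOXA3, and KLF and SP factors 2 of 26 (7.69%), SP4 and KLF11. Ribosomal protein genes, a housekeeping group, had 6 of 71 (8.45%), none above a log2 ratio of 1.82. Collagens had 6 of 40 (15%), the highest being COL9A2 with 1.64 and 1.78. Genes of synapses and channels had 4 of 30 (13.3%): CACNA1A, NLGN2, NLGN1 and GRIA1. The shares thus ran from 6.67% for Polycomb genes to 35.9% for HOX genes. Their order depended on the merging: with regions within 200 bp merged, WNT genes (6 of 29) stood above heart genes (5 of 25), and KLF and SP factors had 4 of 26.

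The source genes of the oligos differed. MEG3 itself held 3 shared loci inside the gene (chr14:100835001-100835650, chr14:100837651-100838150 and chr14:100851651-100852500), among 14 captured loci within 1 kb of it. The first had log2 ratios of 1.19 for MEG3 TFR1 and 1.35 for GATA6-AS TFR1, the second 1.18 and 1.21, and the third 0.87 and 2.24. In all 3 the GATA6-AS TFR1 ratio was the higher one, unlike most shared loci. DLK1, the protein-coding neighbour of MEG3, had 9 captured loci, all with GATA6-AS TFR1 and none shared; the nearest shared locus was 33.9 kb away. RTL1, the retrotransposon-like gene of the same imprinted domain, had a shared locus with 1.43 and 1.01, and IGF2, an imprinted growth factor gene, one with 1.65 and 1.65; these were the 2 of 25 imprinted genes (8.0%). GATA6 and GATA6-AS1 had 1 and 2 captured loci and no shared one, the nearest being 377 kb and 374 kb away. The oligo sequences were not used here, so whether any of these loci holds the sequence of an oligo was not tested.

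Inside genes, 4051 protein-coding genes (20.3%) held the midpoint of a shared locus and 151 held 5 or more. GSE1, which encodes a partner of a histone deacetylase complex, held 20 over 507 kb, where 9.62% of its captured loci were shared. RBFOX3, the neuronal splicing factor known as NeuN, held 15 among 213 captured loci (7.04%) over 576 kb. CDH23, a cadherin of hair-cell tip links, held 14 among 170 (8.24%), and HMCN2, a matrix hemicentin, 13 among 75. HMCN2 was the densest of these 4, with 77.2 shared loci per Mb and 17.3% of its loci shared. The RBFOX3 share was close to the 6.65% of chromosome 17. The shares of GSE1, CDH23 and HMCN2 lay further above those of their chromosomes. At these genes the median log2 ratios were 1.26 to 1.56 for MEG3 TFR1 and 1.16 to 1.33 for GATA6-AS TFR1, so many loci did not mean high ratios. The widest shared loci lay in TTYH1, a membrane protein gene of neural cells (4000 bp, chr19:54428751-54432750), between genes on chromosome 19 (3800 bp), in NRXN2, a presynaptic adhesion gene (3700 bp), in SETD1A, a histone H3 lysine methyltransferase gene (3600 bp), and in PC, the gene of pyruvate carboxylase (3300 bp). Their log2 ratios ran from 1.04 in SETD1A to 2.82 between the genes on chromosome 19, both for MEG3 TFR1.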

How the data were processed

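Triplex capture of H1 DNA was analysed from 8 libraries, 2 for each of 3 oligos and for no oligo. The tools were BWA 0.7.15-r1140 and FastQC and the build was hg38, per the submitters' processing notes. How regions were called and libraries scaled is not given in the sources used here. As 6 region lists, the authors deposited each region with 1 log2 ratio over no oligo. Base 2 was inferred: raised as powers of 2, 97.1% to 100% of a list's values gave fractions of whole numbers with denominators up to 400, within 3e-10. No value per library and no p-value stand in the lists, so no test between groups, replicate error or depth could be computed, and the input named in the design was not analysed here.

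Regions were merged where they overlapped by at least 1 bp; touching regions stayed apart. A locus takes the highest log2 ratio of each oligo. Genes, starts and promoter windows came from RefSeq tables of GRCh38.p14 (19974 protein-coding genes on the chromosomes used, 34789 windows); the tables gave no sequence for loci outside promoters. Of 561 listed genes 555 were found as protein-coding. Named were the 12 genes with the highest lower ratio within 1 kb of a start, up to 4 genes of each of 17 lists, the 5 highest and the 5 widest loci, the 5 genes with most loci (1 of them is not reported here), and MEG3, DLK1, GATA6 and GATA6-AS1; other listed genes were named after their values were seen. The members and lists were chosen with earlier results of these data known. Intervals are Wilson intervals at 95%. Merging was checked on simulated lists whose loci stood well apart, with 1 overlapping region per oligo. There 100.0% of 6000 planted loci were recovered, and crowded or chained regions were not tested. Alternatives covered joining distance, overlap, ratio, distance to MEG3 TFR2, edge width and left-out chromosomes. Python 3.11.15, numpy 2.4.6, pandas 2.3.3, scipy 1.17.1 and matplotlib 3.10.9 were used.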

Additional observations from a re-analysis of the deposited data

How the results depend on the processing

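No paired analysis was possible because the lists carry no value per library; for the same reason no library could be left out in turn. Merging regions within 200 bp gave a gene edge share of 11.9%, median log2 ratios of 1.43 for MEG3 TFR1 and 1.35 for GATA6-AS TFR1 and a median width of 800 bp. Requiring that 0.5 or more of the shorter region be shared gave 13.5%, a GATA6-AS TFR1 median of 1.29 and a width of 650 bp. With log2 ratios of at least 1.5 there were 2547 shared loci, 2.64% of 96425 captured loci. Of the shared loci 14.8% lay at gene edges, beside 7.63% of all loci and 12.1% of loci of GATA6-AS TFR1 alone. This setting gave 529 genes, 34 listed genes, medians of 1.92 and 1.78 and a width of 600 bp. With the 50% of each list that had the largest ratio there were 3820 shared loci, 3.22% of 118561. Of these shared loci 14.1% lay at gene edges, beside 7.70% of all loci and 11.6% of loci of GATA6-AS TFR1 alone. There were 770 genes, 47 listed genes, medians of 1.83 and 1.66 and a width of 600 bp. With no MEG3 TFR2 region within 10 kb there were 2310 loci, 369 genes and 23 listed genes, with medians of 1.46 and 1.33 and a width of 600 bp. Edges of 5 kb gave a share of 35.3% (23.4% of all loci), 4034 genes and 175 listed genes. These fewer or more loci follow from how each alternative is built. The alternatives that follow were chosen after seeing the data. Leaving out chromosome 19 gave a gene edge share of 11.8%, and asking for runs of at least 20 bases a share of 12.9% of promoter windows. Merging touching regions too gave 10924 shared loci of 221540, with 12.5% at gene edges. Counts of single gene lists moved too: with regions within 200 bp merged, Polycomb genes went from 2 to 5 of 30 and KLF and SP factors from 2 to 4 of 26. What read depth limits is unknown.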
